A study of Mus musculus with 8 samples.

Results

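The regions described here are the unplaced and unlocalised contigs of the mouse build mm10, which are stretches of assembled sequence that have no position on a finished chromosome. They were taken as every sequence whose name holds the character _, after exact duplicate lines had been dropped from the authors' deposited methylation table. This gave 1121 cytosines of 2361680 in all, or 0.0475%, on 26 contigs. Of these contigs, 16 were unplaced (named chrUn, of no known chromosome) and 10 were unlocalised (assigned to a chromosome but not ordered on it). The 6 contigs with 50 or more cytosines held 679 of them (60.6%) and are described one by one, and the other 20 held 442. Just inside that limit were chr1_GL456212_random with 51 cytosines and chrX_GL456233_random with 53, and just outside were chrUn_GL456366 with 46 and chrUn_GL456378 with 44.

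The cells were NIH3T3, an immortalised mouse embryo fibroblast line. Stable clones carried the p3xFLAG-CMV-10 vector, either empty (control clones 2 and 3) or encoding FLAG-tagged 14-3-3ε, a protein that binds phosphorylated partners (clones 10 and 12). All of them, controls included, were grown in 10% serum with 800 µg/mL of the selection drug G418, and each was grown up from a picked colony, so a group is 2 clonal lines. The vector's promoter is that of CMV, a virus. Reduced representation bisulfite sequencing (RRBS), in which MspI fragments rich in CpG are converted and sequenced, and RNA-seq were run on each clone, giving 4 groups of 2 and 8 samples. The study compared methylation and expression between the clone groups, and each assay is used here as a single table of that comparison, as the authors deposited it, without clone values. A difference is therefore in percentage points of methylation between the groups, read as 14-3-3ε minus control because that is the usual convention of the tools. The direction is not stated in the files, no test across clones could be made, and the depth behind each cytosine is unknown.

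In mammalian cells most CpGs outside CpG islands are methylated, and dense repeats and heterochromatin depend on this mark for silencing. Dnmt1 with its partner Uhrf1 copies the mark to the new strand after replication, so that the cytosines on both strands of a CpG usually match. Contigs that an assembly leaves unplaced are commonly rich in repeats and in recent duplications of sequence found elsewhere, where short reads are hard to assign to 1 copy.

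Across the contigs the mean difference was 0.0427 percentage points, against -0.478 on chr1 to chr19 pooled, where single autosomes ran from -0.707 on chr16 to -0.297 on chr19. The contig mean thus stood above that of each of the 19 autosomes, but it was the sum of contigs that went in different directions: 12 had a positive mean and 14 a negative one. Unplaced contigs averaged 1.07 points over 614 cytosines and unlocalised contigs -1.20 over 507. The median difference was 0 on the contigs and on the autosomes. With chrUn_JH584304, the contig with the most cytosines, left out, the contig mean was -0.461, inside the range of the autosomes.

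Single differences were larger on the contigs than on the autosomes. The mean size of a difference, without regard to sign, was 6.66 points on the contigs against 4.91 on the autosomes, where the highest chromosome, chr14, reached 5.50. Without chrUn_JH584304 it was 6.13. The SD over cytosines was 10.6 against 8.03 points. A difference of 25 points or more was found at 47 contig cytosines (4.19%), against 1.98% of autosomal ones and at most 3.01% on a single autosome. Of these 47, 19 lay in 3 windows of 1 kb described below, which held 35 cytosines. Outside these windows the share was 2.58% (28 of 1086), inside the range of single autosomes, and the mean size was 6.05 points, above that range. The windows were picked by their calls and left out on the contigs only. The autosomes kept theirs, so the sides of this comparison are not alike. On chrX, which is no autosome, the mean size was 6.84 points and 4.93% of cytosines differed by 25 points or more. By contig, 18 of the 26 had a mean size above the highest autosome, 4 lay below the lowest, which was 4.39 on chr10, and the other 4 fell between.

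These larger differences did not come with more calls. Of the contig cytosines, 49 had a q-value under 0.05 in the authors' deposited table, 20 of them higher and 29 lower in 14-3-3ε clones. That is 4.37% of the contig cytosines beside a background of 4.74% on chr1 to chr19 (1.92% higher and 2.82% lower), a share near the background and no result about the contigs. The lower share of the calls was 59.2% on the contigs and 59.5% on the autosomes. Among cytosines that differed by 25 points or more, 20 of 47 were called on the contigs (42.6%), against 65.4% on the autosomes and 60.4% on the lowest of them. Coverage is not given, so its part in this was not tested.

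**Figure D1:**
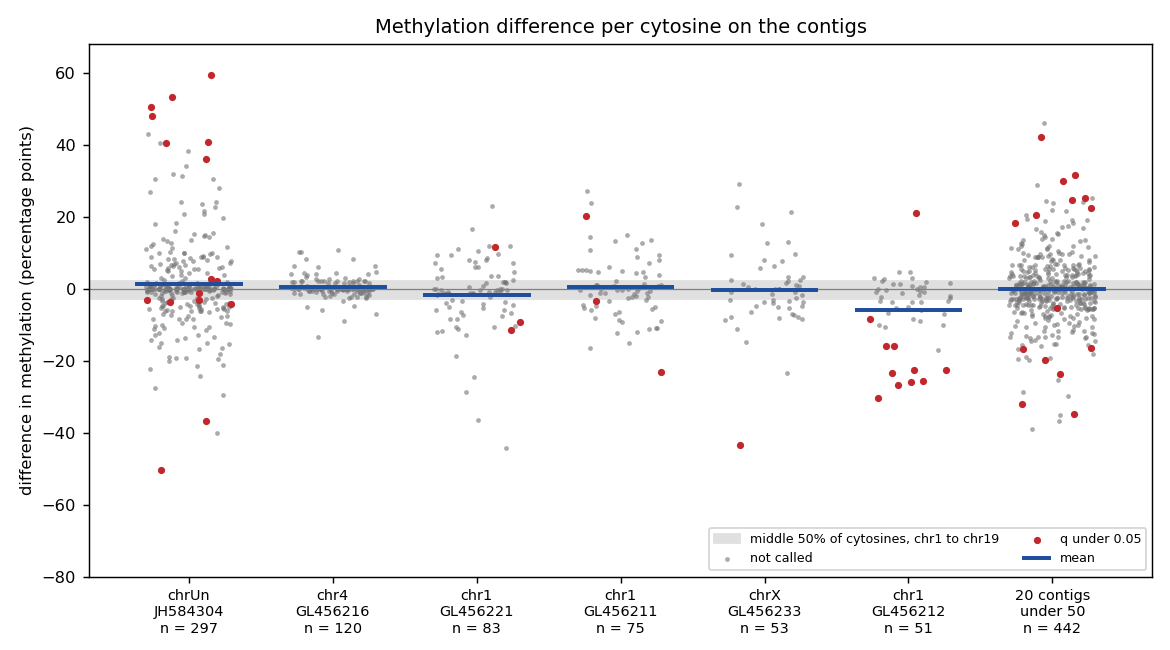
Difference in methylation in percentage points (vertical axis) of each listed cytosine on the 6 contigs with 50 or more cytosines and on the other 20 contigs together; red points have a q-value under 0.05, blue lines are means and the grey band is the middle of the autosomal cytosines from the lower to the upper quartile. The points of chr4_GL456216_random stay within -13.5 and 10.9 with no call, while those of chrUn_JH584304 run from -50.5 to 59.4.

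The size of a difference followed how densely cytosines were listed. Where a cytosine and its neighbours within 100 bp on either side numbered 1 to 4, the mean size was 9.25 points on the contigs (299 cytosines) against 6.21 on the autosomes. With 5 to 10 it was 7.33 (437 cytosines) against 6.02, and in both of these sparse classes the contigs lay above each autosome. With 11 to 20 it was 5.10 against 4.92, inside the range of single autosomes from 4.40 to 5.69. With 21 or more the order turned, at 1.56 against 2.96 points, below the lowest autosome at 2.63, but these 132 cytosines came from only 3 contigs. When the autosomes were weighted to the density classes of the contigs their mean size was 5.46 points, which leaves the contigs at 6.66 above it.

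**Figure D2:**
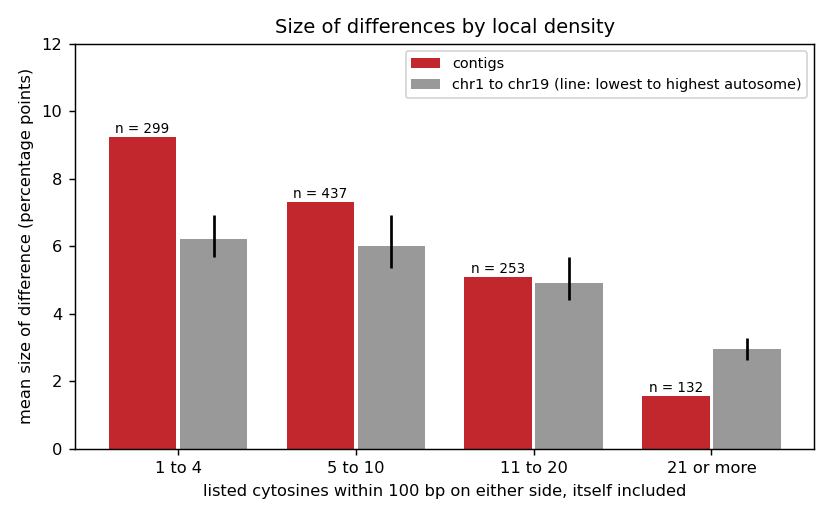
Mean size of the methylation difference in percentage points (bars, from 0) by the number of listed cytosines within 100 bp, for the contigs (red, with their number of cytosines) and chr1 to chr19 pooled (grey, with a line from the lowest to the highest autosome). The contig bar is above the line at 1 to 4 and 5 to 10 neighbours, within it at 11 to 20 and below it at 21 or more.

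The unplaced contig chrUn_JH584304 was the largest member, with 297 cytosines between positions 1855 and 103988. Its mean difference was 1.44 points (SD 13.4 over cytosines) and its median 0, with 139 cytosines above 0 and 139 below. Calls went both ways, 9 higher and 7 lower, or 5.39% of its cytosines. Its spread was uneven along the sequence: a pair of 1 kb windows carried large positive differences, and the other 276 cytosines averaged -0.745 points.

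Windows of 1 kb were called when they held at least 5 cytosines and at least 3 calls in 1 direction only, at 10% or more of the cytosines. Of 75 contig windows with enough cytosines 3 were called (4%), 2 higher and 1 lower, beside a background of 3.44% of the 122010 autosomal windows (1.07% higher and 2.37% lower). The share is near the background, but the spread of window means was wider, with an SD of 7.30 points against 3.84. The quartiles were closer, at -2.68 and 2.25 points against -2.30 and 1.20. Contig windows held a median of 8 cytosines and autosomal ones 10. A mean of 10 points or more in either direction was found in 6 of the 75 contig windows (8%) and in 2.82% of the autosomal ones. The 3 called contig windows were among the 6.

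Both higher windows lie on chrUn_JH584304. From 103001 to 104000 all 8 listed cytosines were positive in the authors' deposited table, from 30.6 to 48.0 points with a mean of 38.1. On the plus strand, at 103254 to 103285, they were 38.2, 48.0 and 31.8 in order of position. On the minus strand, at 103857 to 103988, they were 40.9, 30.6, 34.2, 40.6 and 40.5. The strands thus covered separate stretches and no CpG had both of its strands listed, so they could not be compared at the same place. Of these 8 cytosines 3 had a q-value under 0.05, the smallest 0.00660 at position 103270. Among the 122010 autosomal windows the highest mean was 35.1 and the lowest -44.4, so a mean of 38.1 is within their range in size. Of them 15 reached 25 points and 22 reached -25, against 2 and 0 of the 75 contig windows.

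The second higher window, from 78001 to 79000, averaged 25.3 points over 13 cytosines, of which 12 were positive. It held the 3 called cytosines with the largest rise on any contig, all on the plus strand in the authors' deposited table: 59.4 at 78608 (q = 0.00339), 53.2 at 78022 (q = 0.0300) and 50.5 at 78037 (q = 0.0425). Here the strands stood apart. The 6 plus-strand cytosines lay between 23.6 and 59.4, and the 7 on the minus strand between -14.2 and 28.0. At the 4 CpGs with both strands listed, the plus strand ran from 23.6 to 59.4 and the minus strand from -14.2 to 6.81, with no overlap. At 78608 itself the cytosine across the CpG differed by -14.2 points (q = 0.538).

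A different kind of call was found from 34001 to 35000 of the same contig, a window picked after its values were seen. It held 54 cytosines with a mean of -0.242 points, and 7 of them were called, 2 higher and 5 lower, over 310 bp from 34099 to 34408. These calls were of only 1.26 to 4.19 points in size, with a smallest q-value of 2.06e-05 at position 34265 in the authors' deposited table. They made up 7 of the 8 contig calls under 5 points. Such small calls were 16.3% of the contig calls and 1.79% of the autosomal ones, and at the other end 9 contig calls reached 40 points (18.4%, against 4.11%). Another dense window of this contig, from 59001 to 60000 and not next to it, had 69 cytosines, a mean of -0.664 points and no call.

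The 3 called contig cytosines with the largest fall were single positions in the authors' deposited table. On chrUn_JH584304, position 66208 differed by -50.5 points (q = 0.0243) while the other strand of its CpG stood at 14.3. Position 51512 of that contig differed by -36.6 points (q = 0.0493), with -6.13 on the other strand. On chrX_GL456233_random, position 47235 differed by -43.5 points with a q-value of 5.41e-05, and the cytosine next to it on the other strand by 9.26. Of the 4 extreme cytosines, in either direction, with a listed partner, 3 had a partner of opposite sign.

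**Figure D3:**
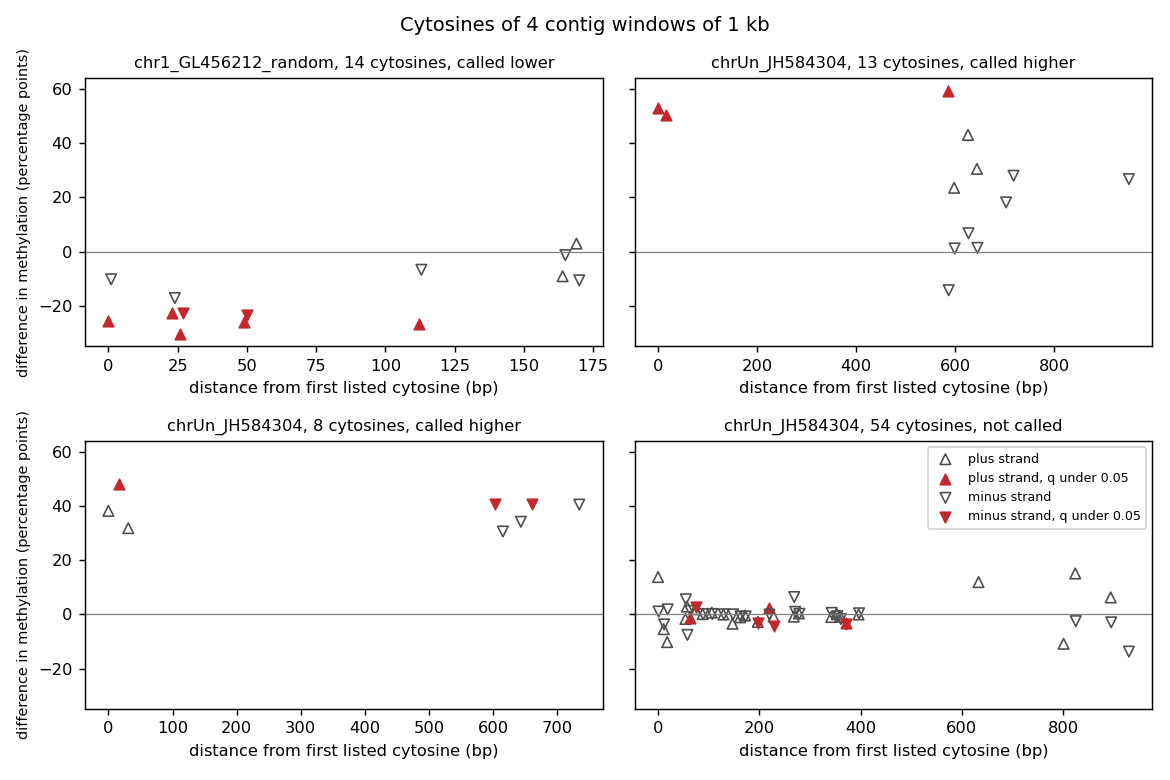
Difference in percentage points (vertical axis) against distance in bp from the first listed cytosine for the 3 called contig windows and the window with the most calls among those not called; triangles up are plus-strand and triangles down minus-strand cytosines, and filled red ones have a q-value under 0.05. All 8 points of the window with 8 cytosines lie between 30.6 and 48.0, with the strands on separate stretches. In the window with 13 the strands separate by value, and in the window with 54 the calls lie within 4.19 points of 0.

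Both strands were listed for 384 contig CpGs. Across these CpGs the differences on the strands had a Pearson correlation of 0.179, against 0.381 over 1052061 autosomal CpGs. CpGs of 1 contig share libraries and often fragments, so these are descriptions. The value was 0.314 over 277 CpGs without chrUn_JH584304, whose own correlation was -0.0747 over 107 CpGs, and 0.135 over 374 without chr1_GL456212_random, whose own was 0.742 over 10. Of these 10 CpGs 7 lay in 1 window, from 112001 to 113000, which was called lower and is described below. A called cytosine with a listed partner had a partner of the same sign in 26 of 35 cases on the contigs (74.3%) and in 82.9% of cases on the autosomes. CpGs called on both strands, 4 on the contigs and 17467 on the autosomes, enter this count once per strand. Of the 35 cases 7 were on chr1_GL456212_random, all of the same sign. For calls of 25 points or more the sign was the same in 10 of 13 cases (76.9%) against 86.3%. Of these 13 cases 4 were on chr1_GL456212_random. The partners of these 13 moved by a median of 6.68 points in the direction of the call, against 18.1 on the autosomes.

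**Figure D4:**
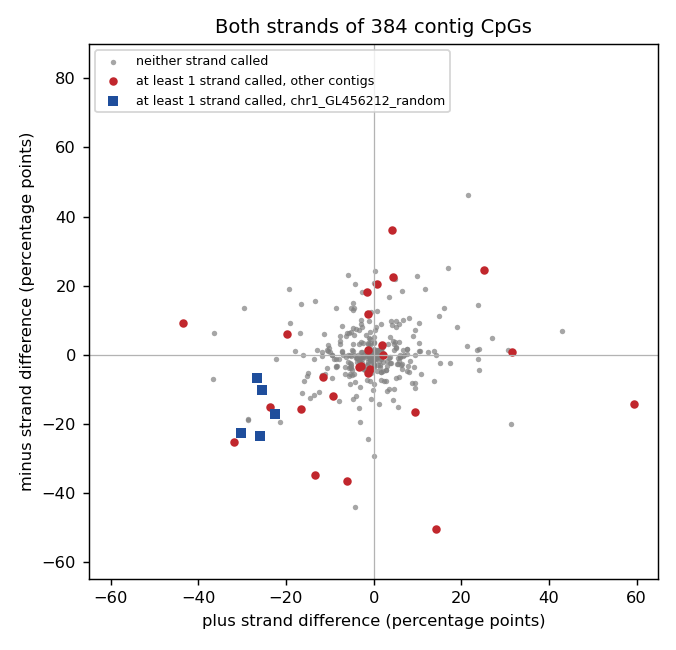
Difference in percentage points on the plus strand (horizontal) and minus strand (vertical) of the 384 contig CpGs with both strands listed; coloured points have at least 1 called strand, blue squares being chr1_GL456212_random. The blue squares lie together at the lower left, while single red points lie far out along 1 axis only, such as 59.4 on the plus and -14.2 on the minus strand.

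Pooled, the contigs of chr1 leaned lower, although chr1_GL456211_random had a positive mean of 0.486 points. The 4 of them averaged -2.44 points over 231 cytosines, against -0.572 on chr1 itself. Their calls were 3 higher and 15 lower, a called share of 7.79% with 83.3% of the calls lower. On chr1 the called share was 4.74%, with 61.2% of the calls lower. Of the 15 lower calls 10 were on chr1_GL456212_random. Without it the other 3 averaged -1.50 over 180 cytosines, still below chr1, with 2 called higher and 5 lower. Their called share was then 3.89%, below the 4.74% of chr1.

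On chr1_GL456212_random 36 of 51 cytosines were below 0 and 15 above. The mean was -5.78 points (SD 9.97), the median -3.49, and 11 cytosines were called (21.6%), 1 higher and 10 lower. The called share of chr1 was 4.74%, or 5.60% when chr1 was weighted to the same density classes. The 10 lower calls included 7 in the window from 112001 to 113000, the only contig window called lower.

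In that window 13 of 14 cytosines were below 0 and the mean was -16.4 points. Its 7 calls lay within 113 bp, from 112388 to 112500. In order of position the plus-strand cytosines there differed by -25.6, -22.6, -30.3, -25.8 and -26.6 points in the authors' deposited table, all called. The minus-strand cytosines at the first 4 of these CpGs differed by -10.2, -17.1, -22.6 and -23.5, of which the last 2 were called, and the fifth, 1 bp past the stretch, by -6.68. The strongest call was at 112414, with a q-value of 0.000513. All 7 calls had a partner of the same sign. At 2 of the CpGs both strands were called, so those calls were partners of each other. The rule that picked this window allows calls in 1 direction only, so the agreement of those calls was fixed by it. Beyond 112501 the 4 remaining cytosines, at 112552 to 112558, ran from -10.6 to 3.00 and none was called. Outside this window the contig averaged -1.78 points over 37 cytosines, with 1 called higher and 3 lower.

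On chr1_GL456221_random the mean was -1.71 points over 83 cytosines (SD 10.4), with 50 below 0 and 32 above, and 1 was called higher and 2 lower. On chr1_GL456211_random it was 0.486 over 75 cytosines (SD 8.79), with 38 below 0 and 36 above, and again 1 was called higher and 2 lower. Its strongest call, at position 37622, differed by -23.0 points (q = 0.00185) in the authors' deposited table. The smaller chr1_GL456210_random had the lowest mean of all contigs, -7.44 over 22 cytosines, with 15 below 0 and 1 call of -31.9 points at 62731, whose other strand differed by -25.4.

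The chr4 contig chr4_GL456216_random was the quietest of the 6. Its mean difference was 0.520 points over 120 cytosines (SD 3.26), its mean size 2.01, and 27 cytosines (22.5%) had a difference of exactly 0. None was called, and a count of 0 of 120 allows a share of up to 2.5%, counting error only. That limit takes the cytosines as independent, which neighbours that share fragments are not, so it is likely too low. The called share of chr4 was 4.80%, or 3.90% when weighted to the density of this contig, and the mean size on chr4 at that density was 4.01 points. Of its cytosines 72 lay in 1 window from 16001 to 17000, where differences ran from -3.42 to 10.3 with a mean of 0.149. The other contig of chr4, chr4_JH584295_random, had 42 cytosines, no call and a mean of -0.116.

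On chrX_GL456233_random the mean was -0.392 points over 53 cytosines, which ran from -43.5 to 29.1, against -1.01 on chrX. Its mean size of 7.26 points stood beside 6.84 on chrX, or 7.55 with chrX weighted to its density. Its only call was the cytosine at 47235 described above, and the other 5 cytosines of that window ran from -7.85 to 9.26.

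The 20 contigs with under 50 cytosines had between 3 and 46 each. Their pooled mean was -0.0472 points, with 8 cytosines called higher and 7 lower (3.39%), and no contig among them had more than 2 calls. By mean, 9 were positive and 11 negative. The means ran from the -7.44 of chr1_GL456210_random to 16.4 on chrUn_GL456392, which had only 3 cytosines, and 9 of the 20 had no call. Of the 15 calls, the largest rise was 42.1 points at position 31375 of chrUn_GL456367 (q = 0.00768) in the authors' deposited table. On chrUn_GL456379 both strands of 1 CpG were called, at 25.1 on the plus and 24.5 on the minus strand, at positions 50035 and 50036.

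Repeated lines were a property of whole contigs. The methylation table held 1374 contig lines, and all of its 253 exact duplicates were among them. Each of 7 contigs had every line repeated, 5 of them in 2 copies and 2 in 4 copies, no contig had only some lines repeated, and no position carried unequal values. These 7 contigs held 157 of the 1121 cytosines, among them all 44 of chrUn_GL456378, which were listed on the minus strand alone. With repeats kept, 8 contigs in place of 6 would have reached 50.

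Distances between listed CpGs were compared as a sign of shared sequence, since no genome sequence was used here. A run was 7 consecutive listed CpGs over 50 to 600 bp, and a match was a run elsewhere in the table with the same 6 distances in the same or the reverse order. Of 186 contig runs 19 had a match (10.2%), against 2.12% of autosomal runs and at most 3.77% on a single autosome. Runs overlap each other, and the 19 came from 11 sites on 8 of the 18 contigs that had any run. Neither chrUn_JH584304, with 70 runs, nor chr4_GL456216_random, with 26, had a match, and neither did the 7 CpGs of the lower window of chr1_GL456212_random. With runs of 6 CpGs the shares were 18.8% and 4.07%, with the highest autosome at 6.29%. With runs of 8 CpGs they were 2.27% (4 of 176) and 1.28%, and the contigs were then inside the range of single autosomes, which reached 2.35%. The run length and the 50 bp floor were chosen after a first look at the data.

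Some matches of the chr1 contigs were on each other or on chr1, and others were on other chromosomes. A pair of runs on chr1_GL456212_random, starting at 57545 and 107459, matched runs on chr1_GL456221_random starting at 149482 and 103583. Both matched in reverse order, and they lay 49914 bp apart on the first contig and 45899 bp apart on the second. The mean differences over the 7 CpGs were -0.178 and 1.08 points for the first match and -8.13 and -0.824 for the second. The second had no other match, while the spacing of the first was also found at chr5:57438354-57438511 and, within the gene Agbl1, at chr7:76833123-76833280. A run on chr1_GL456211_random at 125265 to 125386 matched chr1:85465287-85465408, and a run on chr1_GL456221_random at 149683 to 149840 matched chr1:85339914-85340071. Both places on chr1 lie within the annotated span of the gene Gm7592. The differences were -4.42 on the contig and -0.375 on chr1 for the former, and -4.65 and -3.02 for the latter. A run on chr1_GL456212_random at 107416 to 107538 matched chr1:85147729-85147851, with -2.72 and -0.607 points, and 8 other places. Only on other chromosomes were the matches of 3 further runs: chr1_GL456211_random at 211810 on chr9, and chr1_GL456221_random at 103633 and at 149595, both on chr6.

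Other matches were spread over the genome. The 1 run of chr5_GL456354_random, at 133543 to 133661, had 42 matches on 16 chromosomes. It differed by 1.34 points, and its matches by a median of -0.325, from -13.8 to 7.62, with 24 below 0 and 18 above. A run on chrX_GL456233_random at 213243 to 213354 had 12 matches on 8 chromosomes, with a median of -1.98 points against -0.981 on the contig. A run on chrUn_GL456396 at 4927 to 5079 differed by -4.45 points, and its 4 matches, on 4 chromosomes, by -0.376 to -3.57. Taking the run with the most matches at each of the 11 sites, the contig and the median of its matches had the same sign at 7. Of the 6 sites with 3 or more matches, the contig value fell within the range of the matches at 4. The sites of chr1_GL456212_random at 57545 and chr1_GL456221_random at 149482 are matches of each other and share their other matches. The sites are therefore not independent in these counts.

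**Figure D5:**
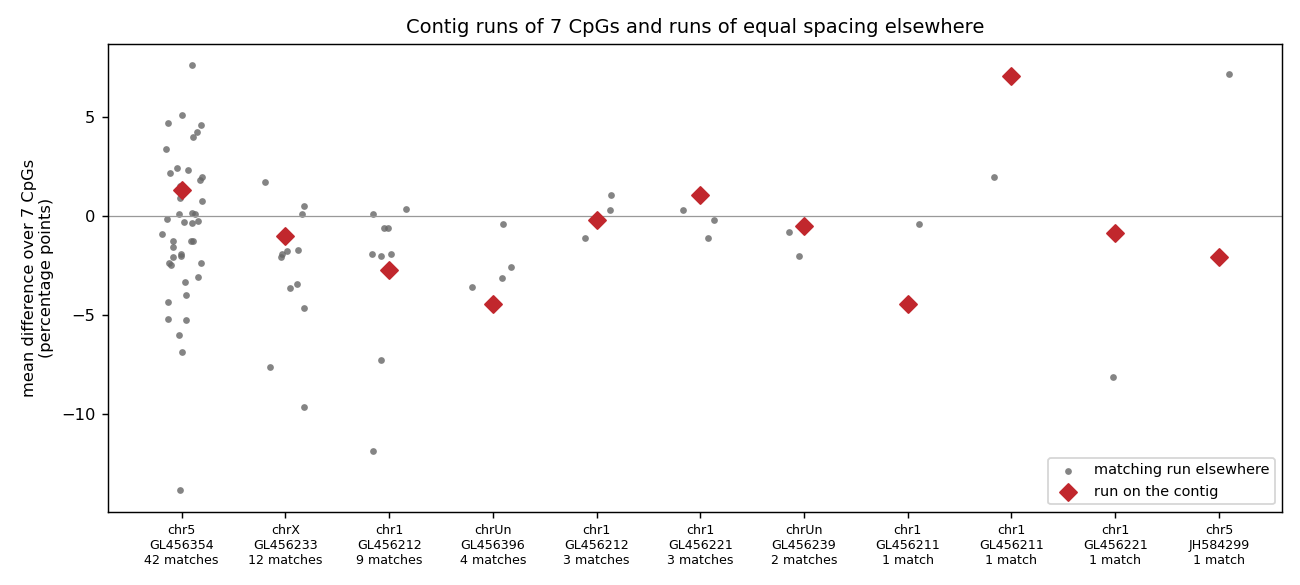
Mean difference over 7 CpGs in percentage points (vertical axis) for the contig run with the most matches at each of the 11 sites (red diamonds) and for the runs with equal CpG spacing elsewhere (grey points). The diamond of chr5_GL456354_random, at 1.34, lies among its 42 matches from -13.8 to 7.62, and that of chrUn_GL456396, at -4.45, lies below all 4 of its matches.

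A few named genes lie on these contigs in mm10. The gene table used gives them a position and, except for Pisd-ps3, a chromosome, but no contig. Their contigs were assigned from general knowledge of the assembly. Dhrsx, an oxidoreductase of the short-chain dehydrogenase family, spans positions 14351 to 36213 of chr4_GL456216_random, and all 120 listed cytosines of that contig lie within it. Tmlhe, an enzyme of carnitine synthesis, holds 24 of the 53 cytosines of chrX_GL456233_random, with a mean difference of -0.418 points. Vamp7, a vesicle fusion protein, and the Sprouty family gene Spry3 lie on the same contig and hold 0 listed cytosines. Csprs on chr1_GL456221_random holds 22 cytosines with a mean of -2.39 points, and the pseudogene Pisd-ps3 on chrUn_JH584304 holds 48 with a mean of -0.0827. None of these 120, 24, 22 and 48 cytosines was called, beside a background of 4.74% on chr1 to chr19. The 120 in Dhrsx are those of the contig without a call described above. In the authors' deposited table of RNA-seq all 6 genes are listed at a mean normalized count of 0, as are 27.4% of its 24062 genes, so their expression gave no value to set beside the methylation.

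Genes that act on DNA methylation, the Tet genes included, or that silence heterochromatin and repeats, were read in the RNA-seq comparison. They were taken as a list of 41 names, of which 39 were listed and tested. Of these, 2 rose and 3 fell in the authors' deposited table, with their adjusted p below 0.05. That is 12.8% of the list beside a background of 10.9% of the 11482 tested genes (6.15% rose and 4.74% fell), a share near the background. The median log2 fold change of the list was -0.13, against -0.0027 over all tested genes. Of the 39, 23 were below 0, beside 5764 of the 11482 tested genes. The genes that fell were Cdca7, Hells and Suv39h2. Cdca7, which brings the remodeller Hells to heterochromatin, changed by -1.21 ± 0.22 (log2, SE; adjusted p = 3.87e-06) in the authors' deposited table. Hells, whose loss lowers methylation at repeats, changed by -1.09 ± 0.20 (adjusted p = 6.91e-06) there. Suv39h2, a histone H3 methyltransferase of pericentric heterochromatin, changed by -0.97 ± 0.30 (adjusted p = 0.0187) in the authors' deposited table.

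The genes that rose were the histone deacetylase Sirt6, by 0.70 ± 0.22 (log2, SE; adjusted p = 0.0186), and Tet1, which oxidises methylated cytosine, by 0.74 ± 0.23 (adjusted p = 0.0200) in the authors' deposited table. At an adjusted p under 0.01 the call of Cdca7 and that of Hells were left of the 39, and 0 rose. Of all 11482 tested genes, 413 rose and 252 fell at that limit. In the authors' deposited table the maintenance enzyme Dnmt1 stood at -0.45 ± 0.27 (log2, SE; adjusted p = 0.309) and its partner Uhrf1 at -0.67 ± 0.33 (adjusted p = 0.194), neither past the threshold. Whether these expression values bear on the contigs was not tested.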

How the data were processed

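DNA methylation (RRBS) and RNA-seq were measured in 2 control and 2 14-3-3ε clones each. Per the labels' protocols, 1 µg of DNA went into RRBS, MspI fragments of 150 to 400 bp were selected, and RNA inserts were about 200 bp. Trim Galore, Bismark, Bowtie2, methylKit, TopHat2, HTSeq, DESeq2 and build mm10 are named in the submitters' processing notes without version, role or setting. Per the file headers, the authors deposited for each cytosine its methylation difference in percentage points with a p-value and a q-value. For each gene they deposited a mean level (a signal, read as the mean of normalized counts), a log2 fold change with its standard error, a test statistic (a score), a p-value and an adjusted p-value, per the file headers. Pooling of clones and the handling of multiply aligned reads are not stated, so q-values may measure only read sampling. Depth is unknown, and no interval is given.

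From these tables, Python 3.11.15 with pandas 2.3.3 and numpy 2.4.6 dropped 253 exact duplicate lines and computed unweighted means, called counts (q under 0.05; genes, adjusted p under 0.05), 1 kb windows, local density and CpG spacing, on scripts tested on simulated data. Named were every contig of 50 or more cytosines, the called windows, the 3 called cytosines with the largest rise and fall, and, of the silencing list, every called gene and Dnmt1. Other named items, Uhrf1 among them, and the window and spacing descriptions were chosen after their values were seen. The contigs and lists were chosen with earlier results of these data known. The plan allowed genes on contigs only from a table that names the contig; they were placed from general knowledge instead. Gene positions are RefSeq, GRCm38.p6. No sequence is printed, since no genome was used here.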

Additional observations from a re-analysis of the deposited data

How the results depend on the processing

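The tables hold no value per clone, so no replicate could be left out. No paired analysis was possible because the groups share no clone numbers and the tables hold no value per clone. Of 57 alternatives, 22 stayed within the tolerance (the SD of the 19 autosome means for means and sizes, 1.5 times for counts, 0.05 for the strand correlation) and 35 moved beyond it. The cause was not tested except where fewer cytosines enter.

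The pooled contig mean of 0.0427 points changed sign with the weighting. It was -0.100 with duplicate lines kept, 0.364 with strands averaged per CpG and -0.906 with the 6 large contigs weighted equally. It was -0.461 without chrUn_JH584304, 1.07 on unplaced and -1.20 on unlocalised contigs alone. By contig, averaging strands per CpG gave 2.26 for chrUn_JH584304, 0.667 for chr4_GL456216_random, -1.42 for chr1_GL456221_random, -4.41 for chr1_GL456212_random and 0.471, with a changed sign, for chrX_GL456233_random. The medians, in the same order, were 0, 0, -0.772, -3.49 and -0.836, and that of chr1_GL456211_random was -0.160, also with a changed sign. Calls numbered 15 (8 higher, 7 lower) at q under 0.01, and 20 (11 higher, 9 lower) with a minimum of 25 points. With that minimum they were 20 of 1121 cytosines on the contigs and 29783 of 2298998 on chr1 to chr19. No autosomal share is given at q under 0.01, so the 15 calls are not compared. Higher calls numbered 11 without chrUn_JH584304. A limit of 20 cytosines would describe 17 contigs. Called silencing genes numbered 2 of 39 at an adjusted p under 0.01, where 413 rose and 252 fell of all 11482 tested genes.

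Added after seeing the data, runs of 6 and 8 CpGs gave matched shares of 18.8% and 2.27%, and a limit of 2 calls gave 5 called windows. No autosomal share of windows is given at that limit, so the 5 are not compared. Without chrUn_JH584304 the mean size was 6.13 points and the strand correlation 0.314. Without the 3 called windows the mean size was 6.05 points and the share of differences of 25 points or more 2.58%. Without chr1_GL456212_random the pooled mean was 0.320 and that of the chr1 contigs -1.50.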
